A study of Mus musculus with 20 samples.

Results

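Striatal gene expression was related, gene by gene, to the distance each mouse traveled after its injection, among mice of the same line and treatment. All 20 of the 20 mice of the series entered, since the sample labels give a distance for each, and the 10 amphetamine and the 10 saline mice were also analysed as separate sets. The mice were adult males of generation 17 of a selection experiment founded on an intercross of 8 inbred strains, about 6.5 months old. High-Active mice came from the line selected for home-cage activity and Control mice from the unselected line. Each received an intraperitoneal injection of 0.25 mg/kg d-amphetamine or of saline, 2 h after lights off, and the striatum was collected 2 h later. Each line contributed 5 saline and 5 amphetamine mice, which makes 4 groups of 5. Counted reads ranged from 32388971 to 53710713 per mouse. The labels do not name the unit of the distance, which is given here in label units.

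The striatum receives cortical and dopaminergic input and controls movement, and most of its neurons are medium spiny neurons. Cytosolic heat shock proteins fold proteins and are induced by heat shock factor when a cell is warmed or its proteins unfold, while chaperones of the endoplasmic reticulum are induced by the unfolded protein response. Cirbp, the cold-inducible RNA-binding protein, is known for more transcript at mildly lowered temperature and less when cells are warmed.

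Distances differed far more in the High-Active amphetamine group than elsewhere. Control saline mice traveled 17.37, 23.98, 24.92, 43.23 and 45.43 label units, and Control amphetamine mice 23.24, 25.46, 29.83, 30.2 and 57.1. High-Active saline mice traveled 46.41, 50.28, 52.1, 69.3 and 88.06. High-Active amphetamine mice traveled 38.55, 60.96, 100.7, 187.1 and 519.2, so that the highest was 13.5 times the lowest, against ratios of 1.90 to 2.61 in the other groups. Of the sum of squares of log2 distance around the group means, the High-Active amphetamine group held 73.8%. Mouse 905, which traveled 519.2, held 39.3% and mouse 487, which traveled 38.55, held 22.4%. The 10 saline mice together held 17.3%. Values without these mice are therefore given beside the results. The 20 mice came from 13 families, and 13 of them (9 High-Active and 4 Control) shared both parents with another mouse, so the mice were not fully independent.

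**Figure D1:**
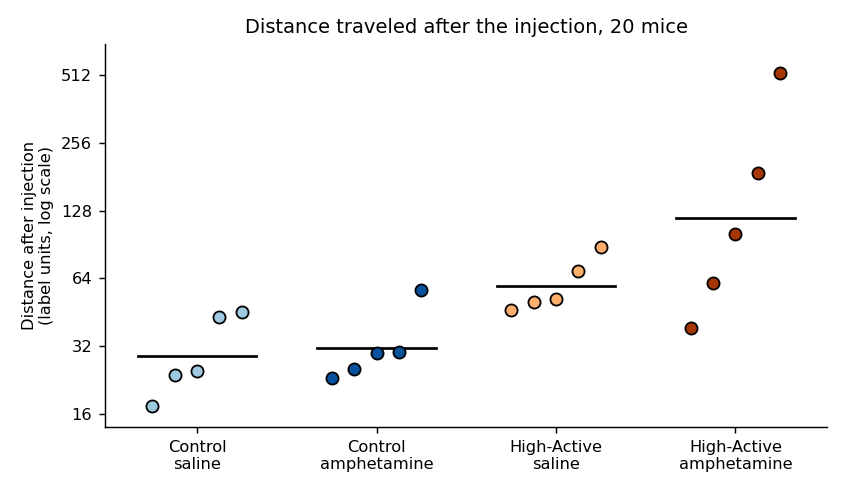
Distance after the injection (label units, log scale) of each of the 20 mice, by group; each point is 1 mouse and each line the geometric mean of its group. High-Active amphetamine mice spread from 38.55 to 519.2, and saline mice from 17.37 to 88.06.

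Each gene's slope is the difference in log2 expression per doubling of distance, with a separate mean for each of the 4 groups. In 20 mice, 0 of 14792 genes passed an FDR of 0.1 in edgeR's quasi-likelihood test, where the smallest adjusted p was 0.359. An unadjusted p under 0.05 was found for 1082 genes (7.31% of those tested), against 740 for a uniform distribution. Positive slopes made up 462 of them (3.12%) and negative slopes 620 (4.19%). With a single mouse left out, the number over all genes ran from 769 to 1643, highest without mouse 192. Counts in gene lists without a mouse, given below, stand beside that shift. The amphetamine set gave 1031 genes at p under 0.05 (6.97%), 548 of them with negative slopes (3.7%), and the saline set 270 (1.83%), and 0 genes in either passed the FDR threshold (smallest adjusted p 0.629 and 0.9995, edgeR). DESeq2 called 4 genes at an adjusted p under 0.1 in 20 mice, namely Hspa8 and Tmem64 with positive and Cirbp and Rps3a1 with negative slopes. The likelihood-ratio test with robust dispersions called 52, and limma-trend called 0. The median standard error over genes was 0.044 in 20 mice and 0.109 in the saline set. Genes named below for their small p were chosen from all 14792, so their p describes a rank, and 0 of them passed the threshold in edgeR.

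**Figure D2:**
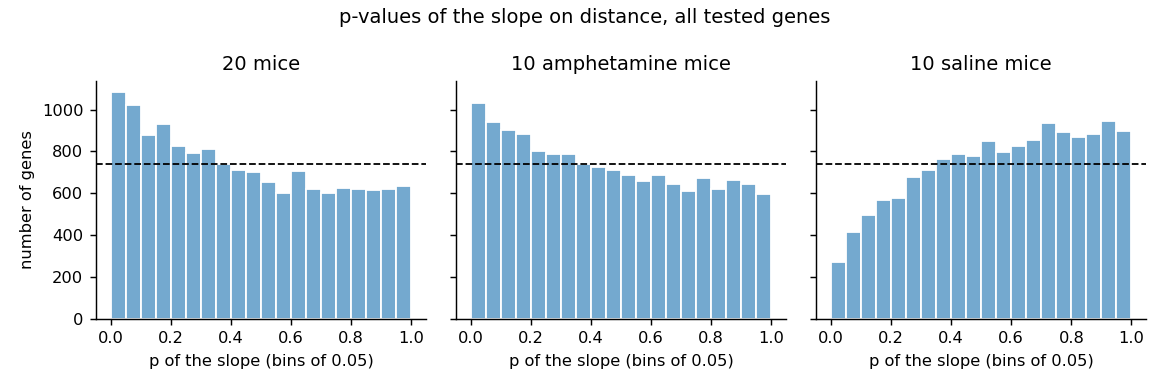
Number of genes in each bin of 0.05 of the p of the slope, for 20 mice, the 10 amphetamine mice and the 10 saline mice; the dashed line marks the 740 genes per bin of a uniform distribution. The first bin holds 1082, 1031 and 270 genes.

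Genes of the cytosolic heat shock list had positive slopes. The list also holds Hspd1 (0.05 ± 0.027) and Hspe1 (0.05 ± 0.033), which encode chaperonins of mitochondria and not of the cytosol. Of the 17 members, 17 were positive in 20 mice and 7 had a p under 0.05 with a positive slope, against 3.12% of all genes. Their median slope was 0.08, against -0.0013 over all genes. The 7 were Hspa8 (0.19 ± 0.041, SE), Chordc1 (0.18 ± 0.055), Hsph1 (0.16 ± 0.049), Dnajb1 (0.15 ± 0.065), Dnaja1 (0.10 ± 0.043), Ahsa1 (0.08 ± 0.039) and Hsp90ab1 (0.07 ± 0.028). These encode Hsp70 and Hsp90 chaperones and their co-chaperones. Hspa1b and Hspa1a, the strongly inducible Hsp70 genes, had slopes of 0.21 ± 0.18 and 0.07 ± 0.14. In the amphetamine set 17 of 17 were positive with a median of 0.10, and 6 had a p under 0.05 (3.27% of all genes). In the saline set 14 of 17 were positive with a median of 0.09, and 0 had a p under 0.05 (0.73% of all genes). The count of 7 was 3 without mouse 487 or without mouse 407, 4 without mouse 448, and 9 without mouse 905.

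Hspa8 (chr9:40800984-40810087, plus strand) encodes the constitutive Hsc70 chaperone. In order of increasing distance it was at 9.52, 9.75, 9.66, 9.84 and 10.07 log2 CPM in Control amphetamine mice and at 9.61, 9.88, 10.12, 10.3 and 10.26 in High-Active amphetamine mice. It was at 9.89, 9.76, 9.67, 10.03 and 9.99 in Control saline mice and at 10.28, 9.97, 9.91, 10.18 and 10.22 in High-Active saline mice. In both amphetamine groups the mouse with the shortest distance had the lowest value, while the High-Active saline mouse with the shortest distance had the highest of its group. The slope was positive within each of the 4 groups and corresponded to 13.8% per doubling in 20 mice (adjusted p = 0.652 in edgeR and 0.024 in DESeq2). With group means removed, r was 0.757 (permutation p = 0.00151) and rho 0.714 (permutation p = 0.00363), and r was 0.733 without mice 905 and 487. The slope was 0.20 ± 0.044 in the amphetamine set and 0.15 ± 0.094 in the saline set, a difference of 0.04 ± 0.11 (adjusted p = 0.9999, edgeR). Without the 5 High-Active amphetamine mice the slope was 0.22, with an unadjusted p under 0.05 (adjusted p = 0.782, edgeR).

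Hsph1 (chr5:149614287-149636376, minus strand) encodes Hsp110, a nucleotide exchange factor of Hsp70. It was at 8.61, 8.66, 8.69, 9.03 and 9.18 log2 CPM in Control amphetamine mice and at 8.48, 8.73, 8.62, 8.82 and 8.98 in High-Active amphetamine mice, in order of distance. It was at 8.83, 8.64, 8.69, 9.16 and 8.89 in Control saline mice and at 9.04, 8.91, 8.54, 9.09 and 8.87 in High-Active saline mice. The mouse that traveled farthest had the highest Hsph1 in both amphetamine groups and in neither saline group. Over 20 mice r was 0.617 (permutation p = 0.00157), rho 0.623 (permutation p = 0.00801), and r without mice 905 and 487 was 0.535. Chordc1, an Hsp90 co-chaperone, had r = 0.615 (permutation p = 0.00169) and rho = 0.57 (permutation p = 0.0145).

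**Figure D3:**
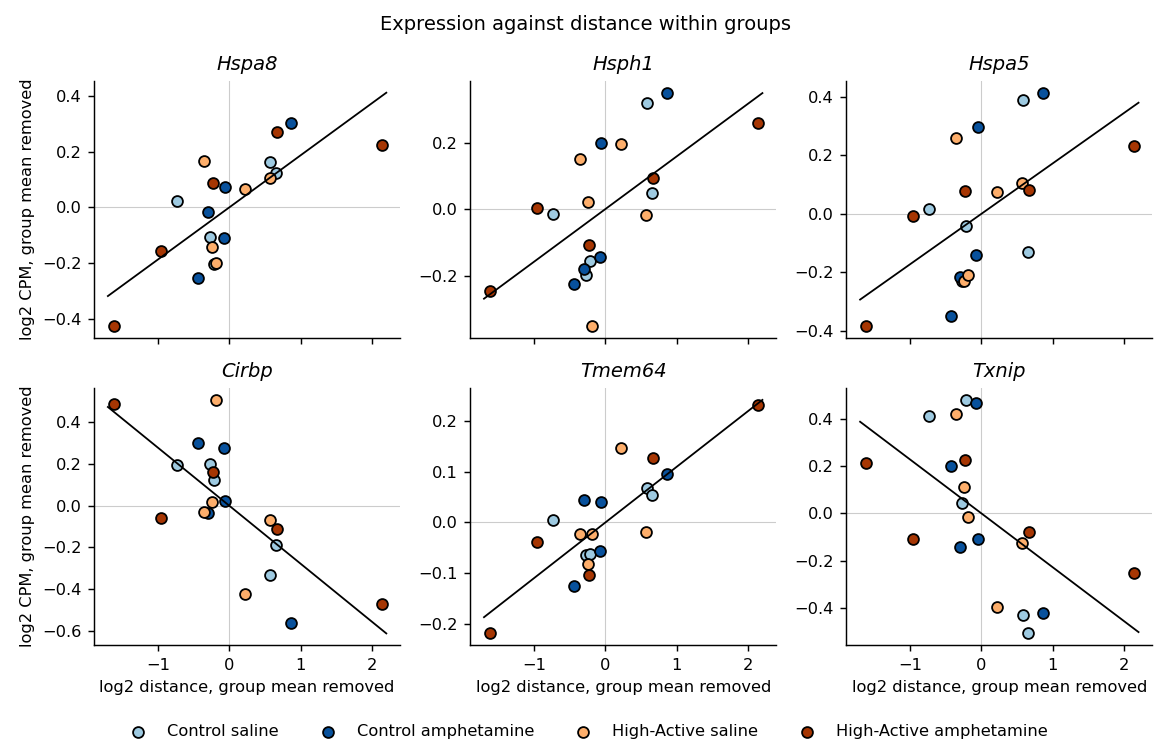
log2 CPM against log2 distance, both with the group mean removed, for 6 genes; each point is 1 of the 20 mice, colored by group, and each line is a least-squares fit. The lines of Hspa8, Hsph1, Hspa5 and Tmem64 slope upward and those of Cirbp and Txnip downward, and the points farthest right and left are mice 905 and 487.

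Genes of the endoplasmic reticulum chaperone list mostly had slopes of the same sign. The list also holds the transcription factor genes Ddit3 and Xbp1. Of 13 members, 12 were positive in 20 mice and 9 had a p under 0.05 with a positive slope, against 3.12% of all genes, with a median slope of 0.12. The 9 were Hspa5 (0.17 ± 0.060), Sdf2l1 (0.17 ± 0.077), Pdia6 (0.13 ± 0.047), Calr (0.13 ± 0.044), Creld2 (0.12 ± 0.043), Hsp90b1 (0.12 ± 0.042), Manf (0.12 ± 0.045), Pdia3 (0.10 ± 0.041) and Dnajb11 (0.10 ± 0.035). Ddit3, which encodes the transcription factor CHOP of prolonged endoplasmic reticulum stress, had -0.02 ± 0.031. Xbp1, a transcription factor of the unfolded protein response, had 0.08 ± 0.044. The median was 0.12 in the amphetamine set, with 5 members at p under 0.05 (3.27% of all genes), and 0.09 in the saline set, with 0 (0.73% of all genes). The count of 9 was 3 without mouse 487, 6 without mouse 407 and 11 without mouse 905.

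The promoters of these chaperones are printed for a motif that several shared. The list was made of genes known for the unfolded protein response. A shared stress element is therefore no independent evidence for the list or its slopes. The endoplasmic reticulum stress element consists of CCAAT and CCACG separated by 9 bases, and is known to be bound by NF-Y and ATF6. It was searched, after the slopes were known, on both strands of the 250 bases before each start site in the RefSeq promoter table (GRCm38.p6). It occurred in 0.113% of 32851 promoters and in 35 of 27025 genes (0.13%). Of the 13 genes in the list the table held 11, and 5 of these had the motif. Bases annotated as exon were left out of the stretches below. The Calr stretch is chr8:84846935-84847181 and the Hsp90b1 stretch is chr10:86705510-86705694, which an annotated small gene, Gm25745, also overlaps. Both are on the minus strand and read 5′ to 3′ along the chaperone gene, with each match of the motif in capitals.
Calr: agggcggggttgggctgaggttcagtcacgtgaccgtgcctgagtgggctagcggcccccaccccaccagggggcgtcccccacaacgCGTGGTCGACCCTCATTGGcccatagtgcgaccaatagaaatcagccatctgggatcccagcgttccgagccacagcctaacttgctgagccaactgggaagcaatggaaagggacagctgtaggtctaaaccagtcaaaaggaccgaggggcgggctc
Hsp90b1: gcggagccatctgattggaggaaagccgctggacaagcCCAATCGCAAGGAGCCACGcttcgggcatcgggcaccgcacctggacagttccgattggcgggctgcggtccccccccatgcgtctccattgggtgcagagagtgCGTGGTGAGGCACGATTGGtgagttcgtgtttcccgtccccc

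The other 3 matches are shown alone, with the fixed letters in capitals. The Hspa5 match is chr2:34772025-34772043, within bases annotated as exon, the Creld2 match is chr15:88819520-88819538 and the Pdia6 match is chr12:17266491-17266509, each on the plus strand. They lie 46, 107 and 79 bases before the start sites of the table.
Hspa5: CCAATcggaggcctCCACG
Creld2: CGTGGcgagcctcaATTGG
Pdia6: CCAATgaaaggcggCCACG

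None of the 13 heat shock genes in the table held this motif in these windows. A paired heat shock element, GAANNTTC or TTCNNGAA on either strand, occurred in 14.5% of the 27025 genes and in 7 of those 13 genes. The 7 were Hsph1 and Dnaja1, which had a p under 0.05, and Hspa1a, Hspa1b, Hspb1, Hspd1 and Hspe1, which did not. The Hsph1 match was TTCTCGAA at chr5:149636362-149636369, within bases annotated as exon, 25 bases before the start site. A match is a description of the sequence, and its relation to the slopes was not tested.

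Calr (chr8:84841850-84846934, minus strand) encodes the lectin chaperone calreticulin. It was at 8.12, 8.26, 8.38, 8.69 and 8.75 log2 CPM in Control amphetamine mice in order of distance and at 8.23, 8.43, 8.57, 8.52 and 8.58 in High-Active amphetamine mice. It was at 8.46, 8.35, 8.49, 8.77 and 8.52 in Control saline mice and at 8.53, 8.65, 8.36, 8.73 and 8.69 in High-Active saline mice. The 2 saline mice of each line that traveled farthest had the highest values of their group, and Control amphetamine mice followed the order of distance. Over 20 mice r was 0.585 (permutation p = 0.00094) and rho 0.717 (permutation p = 0.00087), with r = 0.612 without mice 905 and 487. The slope was 0.12 ± 0.054 in the amphetamine set and 0.19 ± 0.085 in the saline set. It was 0.27 without the 5 High-Active amphetamine mice, with an unadjusted p under 0.05 (adjusted p = 0.782, edgeR).

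Hspa5 (chr2:34771970-34777547, plus strand) encodes BiP, the Hsp70 of the endoplasmic reticulum. It was at 8.21, 8.34, 8.42, 8.85 and 8.97 log2 CPM in Control amphetamine mice and at 8.17, 8.55, 8.63, 8.63 and 8.78 in High-Active amphetamine mice. It was at 8.68, 8.43, 8.62, 9.05 and 8.53 in Control saline mice and at 8.99, 8.51, 8.53, 8.81 and 8.84 in High-Active saline mice. At this rounding, no amphetamine mouse had a lower value than a mouse of its group that traveled less, while saline mice showed no such order. Over 20 mice r was 0.57 (permutation p = 0.00529) and rho 0.603 (permutation p = 0.00908), with r = 0.475 without mice 905 and 487.

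Cirbp (chr10:80165985-80172786, plus strand) had a negative slope within each of the 4 groups. The slope in 20 mice was -0.28 ± 0.062 (adjusted p = 0.652 in edgeR and 0.0412 in DESeq2). In order of distance, Cirbp was at 5.78, 5.45, 5.76, 5.5 and 4.92 log2 CPM in Control amphetamine mice and at 5.90, 5.35, 5.57, 5.3 and 4.94 in High-Active amphetamine mice. The mouse that traveled farthest had the lowest value in both groups. Control saline mice had 5.85, 5.85, 5.77, 5.32 and 5.46, and the 2 that traveled farthest did not overlap the other 3. High-Active saline mice had 5.44, 5.49, 5.98, 5.05 and 5.4, with no clear order. The slope was -0.26 ± 0.062 in the amphetamine set and -0.38 ± 0.15 in the saline set, a difference of 0.13 ± 0.17 (adjusted p = 0.9999, edgeR). Over 20 mice r was -0.735 (permutation p = 0.00029) and rho -0.677 (permutation p = 0.0038), with r = -0.63 without mice 905 and 487. The slope was -0.46 without the 5 High-Active amphetamine mice, with an unadjusted p under 0.05 (adjusted p = 0.782, edgeR).

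Cirbp and the chaperones also varied together after both group means and log2 distance were removed, in 3 relations over 20 mice. Cirbp and the mean log2 CPM of the heat shock list had r = -0.586 (permutation p = 0.0192, adjusted p = 0.0192) and rho = -0.639 (permutation p = 0.00631, adjusted p = 0.00947). Cirbp and the mean of the endoplasmic reticulum list had r = -0.569 (permutation p = 0.016, adjusted p = 0.0192) and rho = -0.609 (permutation p = 0.0117, adjusted p = 0.0117). The 2 lists had r = 0.869 with each other (permutation p = 3e-05, adjusted p = 9e-05) and rho = 0.817 (permutation p = 9e-05, adjusted p = 0.00027). Without the 2 mice farthest on the first measure, r was -0.647, -0.585 and 0.853. Cirbp was among the genes named for a small p, and these lists were chosen from those described. The adjustment over 3 relations does not cover that choice.

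Tmem64 (chr4:15265831-15286753, plus strand), a transmembrane protein gene, had the smallest p among positive slopes (0.11 ± 0.021, adjusted p = 0.359 in edgeR and 0.00319 in DESeq2). It was at 5.89, 6.06, 5.96, 6.06 and 6.11 log2 CPM in Control amphetamine mice and at 5.79, 5.97, 5.90, 6.13 and 6.24 in High-Active amphetamine mice. Control saline mice had 6.05, 5.98, 5.98, 6.11 and 6.10, and High-Active saline mice 6.02, 5.96, 6.02, 6.19 and 6.03. The mouse that traveled farthest was highest in both amphetamine groups, and the slope corresponded to 7.89% per doubling. Over 20 mice r was 0.823 (permutation p = 0.00081) and rho 0.729 (permutation p = 0.00378), with r = 0.627 without mice 905 and 487. Pde1c (chr6:56069804-56569103, minus strand), a calmodulin-dependent phosphodiesterase of cyclic nucleotides, had a slope of 0.22 ± 0.051. It was at 5.43, 5.71, 5.20, 5.85 and 6.34 in High-Active amphetamine mice, with mouse 905 highest. Its r was 0.706 (permutation p = 0.0222, adjusted p = 0.0616) and rho 0.594 (permutation p = 0.028, adjusted p = 0.0914). Without mice 905 and 487 its r was 0.434 (permutation p = 0.175). The slope without those mice was 0.16 (adjusted p = 0.993, edgeR), and it was 0.26 ± 0.11 in the saline set, which holds neither of them.

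The other genes with the smallest p and positive slopes were Tnfrsf25 (0.45 ± 0.12), a death receptor, Slc39a2 (0.24 ± 0.062), a zinc transporter, Ryk (0.13 ± 0.034), a Wnt receptor, Tpgs2 (0.10 ± 0.024), a subunit of tubulin polyglutamylase, Cers6 (0.09 ± 0.023), a ceramide synthase, Creld1 (0.08 ± 0.022), and Tfdp1 (0.07 ± 0.020), the partner of E2F factors. Negative slopes with the smallest p, besides Rps3a1 and Cirbp, were those of Arsg (-0.26 ± 0.063), a lysosomal sulfatase, Sh3tc2 (-0.22 ± 0.056), known for myelination by Schwann cells, Eci1 (-0.18 ± 0.048), an enzyme of mitochondrial fatty acid oxidation, 1110008L16Rik (-0.18 ± 0.043), Fbxl4 (-0.15 ± 0.036), a mitochondrial F-box protein, Cyth4 (-0.13 ± 0.035), an exchange factor for ARF GTPases, Stxbp3 (-0.13 ± 0.033), a syntaxin-binding protein, and Slc20a2 (-0.10 ± 0.027), a phosphate transporter. Their adjusted p was 0.652 in edgeR. Without the 5 High-Active amphetamine mice each of these slopes kept its sign. The unadjusted p was then above 0.05 for Slc39a2 (0.21), Tfdp1 (0.04) and Slc20a2 (-0.10), and under 0.05 for the others (adjusted p of 0.78 or more, edgeR). Without mice 905 and 487 it was above 0.05 for the same genes and for Creld1 (0.08). In saline mice Tfdp1 had 0.002 ± 0.051.

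Rps3a1 (chr3:86137940-86142702, minus strand), a protein of the small ribosomal subunit, had the smallest p of all genes (-0.51 ± 0.095, adjusted p = 0.359, edgeR), but its values fell into separate ranges together with those of Rps3a2, an annotated processed pseudogene. Of the 693 stretches of 100 bases in the Rps3a2 transcript, 53.4% occurred unchanged in Rps3a1, so its reads are uncertain between the copies. In 7 mice Rps3a2 was at 5.58 to 5.88 log2 CPM and Rps3a1 at 6.03 to 6.65. In 11 mice Rps3a2 was at 4.72 to 5.14 and Rps3a1 at 7.12 to 7.60. In 2 High-Active amphetamine mice Rps3a2 was at 1.04 and 1.29 and Rps3a1 at 7.75 and 7.84, and these mice traveled 60.96 and 38.55, the shortest distances of their group. No correlation is given across such ranges. The summed CPM of both copies ran from 113.3 to 231.0, and its log2 had a slope of -0.28. Of 76 cytosolic ribosomal protein genes, 72 had negative slopes in 20 mice with a median of -0.04, and 4 of these had a p under 0.05 (4.19% of all genes). The count of 4 was 1 without mouse 905, 7 without mouse 872, 11 without mouse 192 and 14 without mouse 487. Without mouse 192, the count over all genes in either direction also rose, from 1082 to 1643. In the amphetamine set 65 were negative with a median of -0.02, and 1 had a p under 0.05 with a negative slope (3.7% of all genes). In the saline set the median was -0.11 and 8 had a p under 0.05 with a negative slope (1.1% of all genes).

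**Figure D4:**
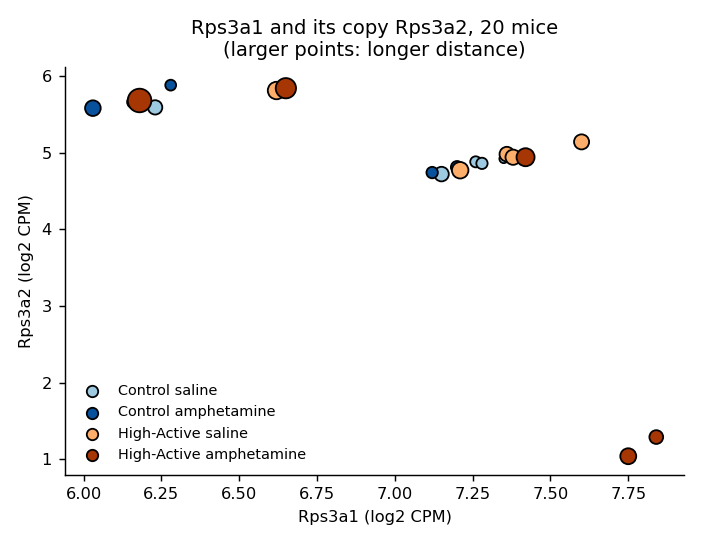
log2 CPM of Rps3a2 against that of Rps3a1 in the 20 mice, colored by group, with larger points for longer distances. The mice fall into ranges of 7, 11 and 2 mice, and the 2 mice at the lower right are the High-Active amphetamine mice that traveled 60.96 and 38.55.

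Genes that respond to neuronal activity were described because movement and amphetamine are both known to drive them in the striatum. Of 28 immediate early genes, 21 were positive in 20 mice with a median of 0.11. A p under 0.05 was found for 1, with a positive slope, against 3.12% of all genes. This was the transcription factor Maff (0.27 ± 0.12, adjusted p = 0.656, edgeR). Without mouse 905 the Maff slope was 0.13 (adjusted p = 0.892, edgeR). Fos had 0.06 ± 0.20, Arc 0.24 ± 0.22, Egr1 0.16 ± 0.12 and Nr4a1 0.21 ± 0.18. For Arc, r was 0.291 (permutation p = 0.203) and rho 0.256 (permutation p = 0.318), and for Fos r was 0.144 (permutation p = 0.545) and rho 0.0722 (permutation p = 0.782). The sign for Fos and Arc depended on the fit, with -0.126 for Fos when home-cage distance was added and -0.0344 for Arc when cortex and oligodendrocyte scores were added. With home-cage distance added, 14 of 28 were positive and the median was -0.0017.

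Feedback genes of the MAPK cascade, whose products dampen ERK signaling, had positive slopes in 10 of 10 members in 20 mice and in each set. Their median in 20 mice was 0.13, and 3 had a p under 0.05 (3.12% of all genes), Spry4 (0.18 ± 0.062), Spred1 (0.10 ± 0.037) and Spred3 (0.12 ± 0.055). The count was 1 without mouse 487, 6 without mouse 192 and 7 without mouse 499, and the number positive was 10 without any single mouse. Without mouse 192, the count over all genes in either direction also rose, from 1082 to 1643. With home-cage distance added, Spry4 had 0.13, Spred1 0.11 and Spred3 0.06, and only Spred1 had an unadjusted p under 0.05. With cortex and oligodendrocyte scores they had 0.12, 0.07 and 0.07, and none did. With choroid plexus and blood scores they had 0.25, 0.07 and 0.11, and only Spry4 did. The adjusted p in these fits was 0.967 or more (edgeR). Spry4 was at 3.68, 3.82, 3.51, 3.83 and 4.24 log2 CPM in Control amphetamine mice and at 3.60, 3.66, 3.81, 4.33 and 4.04 in High-Active amphetamine mice. It was at 3.84, 3.63, 3.67, 3.85 and 4.03 in Control saline mice and at 4.23, 3.60, 3.68, 3.68 and 4.08 in High-Active saline mice. The mouse that traveled farthest was highest in both Control groups, and the highest High-Active saline mouse was the one that traveled least.

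Other lists gave few genes with a small p. Over all genes, 3.12% had a p under 0.05 with a positive slope and 4.19% with a negative slope. Of 19 glucocorticoid response genes, 9 were positive and 0 had a p under 0.05 (Klf9 had the smallest, 0.07 ± 0.038, adjusted p = 0.694, edgeR). Of 16 circadian clock genes, Per2 alone had a p under 0.05 (0.14 ± 0.056, and 0.13 without mouse 905, where the p was above 0.05). Of 20 medium spiny neuron markers, 19 were positive with a median of 0.03, but without mouse 905 5 were positive and the median was -0.03. Gnal, the G protein that couples Drd1 to adenylyl cyclase, had 0.11 ± 0.050 and was the 1 marker with a p under 0.05, but its slope was 0.02 without mouse 905 (adjusted p = 0.962, edgeR). Drd1 had 0.10 ± 0.058, Penk 0.10 ± 0.056, Pdyn 0.11 ± 0.069 and Tac1 0.09 ± 0.053, and without mouse 905 these lay between 0.02 and 0.06. Among 7 genes of dopamine synthesis, transport and breakdown, Slc18a2, the vesicular monoamine transporter, had -0.45 ± 0.16 and Maoa, a monoamine oxidase, -0.11 ± 0.047, both with a p under 0.05 (4.19% of all genes). Without mouse 905 the slope of Maoa was -0.05 (adjusted p = 0.898) and that of Slc18a2 -0.57 (adjusted p = 0.758, edgeR), and without mouse 487 neither had a p under 0.05. Of 77 nuclear respiratory chain genes, 26 were positive and Ndufc2 had a p under 0.05 (-0.08 ± 0.036, and -0.04 without mouse 905). The number positive was 54 without mouse 905 and 16 without mouse 487. Of 12 transcripts of the mitochondrial genome 10 were positive and 0 had a p under 0.05 (mt-Nd1 had the smallest, 0.06 ± 0.035), and 12 were positive without mouse 905 and 4 without mouse 487.

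**Figure D5:**
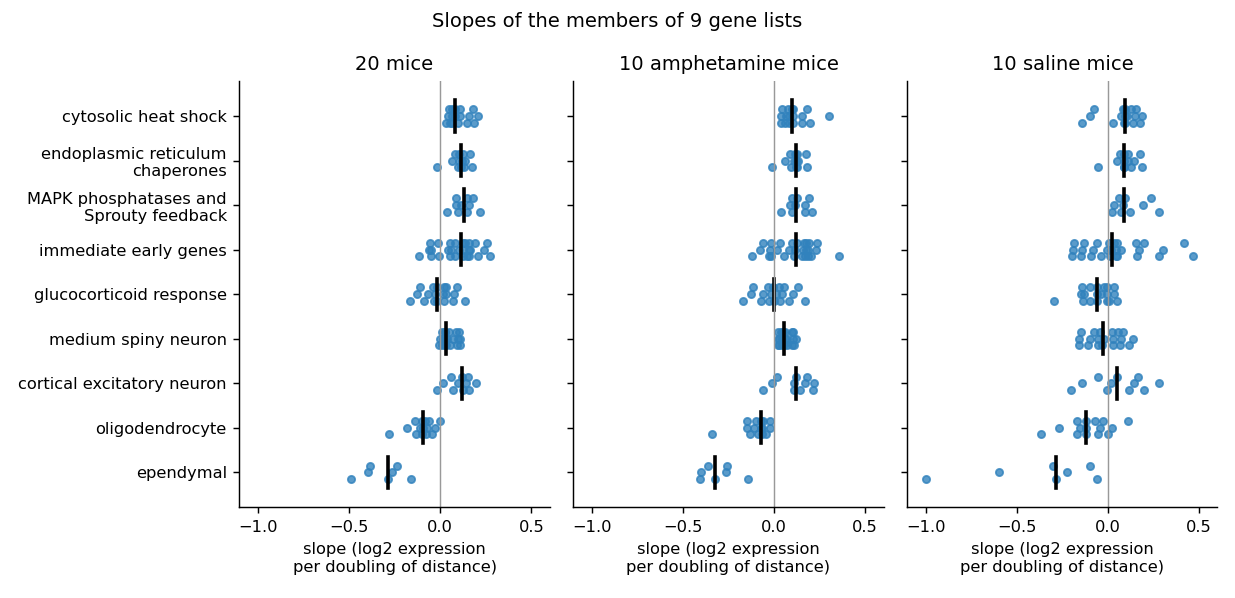
Slopes (log2 expression per doubling of distance) of the members of 9 gene lists in 20 mice, the amphetamine set and the saline set; each point is 1 gene and each black bar the median of its list. The medians of the heat shock, endoplasmic reticulum chaperone and MAPK feedback lists are above 0 and those of the oligodendrocyte and ependymal lists below 0 in the 3 panels.

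In the 10 amphetamine mice, positive slopes with the smallest p were those of Baz1a (0.34 ± 0.052), a subunit of chromatin remodelers, Wee1 (0.21 ± 0.036), a kinase that inhibits Cdk1, P4ha1 (0.17 ± 0.030), a prolyl hydroxylase of collagen, Adgrl3 (0.27 ± 0.052) and Itga7 (0.16 ± 0.032), an integrin. Negative slopes with the smallest p were those of Npas3 (-0.17 ± 0.031), a transcription factor, Ccdc17 (-0.46 ± 0.087), Olfml1 (-0.36 ± 0.070), Ecscr (-0.56 ± 0.11), and the pseudogene Gm6483 (-0.32 ± 0.065). Their adjusted p was 0.629 in edgeR. In saline mice the slopes of these 10 genes lay between -0.25 and 0.22. The test of the difference between the sets gave an unadjusted p under 0.05 for Wee1, Ccdc17 and Olfml1, each with an adjusted p = 0.9999 (edgeR). Mouse 905 held 47.5% of the sum of squares of log2 distance in this set. Over the mice of both treatments, with group means removed, r of each of these 10 genes was weaker without mice 905 and 487. For the positive slopes r ran from 0.515 to 0.651 with all mice, and from 0.042 (Wee1) to 0.366 (Adgrl3) without those mice. For the negative slopes r ran from -0.663 to -0.469 with all mice, and from -0.481 (Ecscr) to -0.003 (Olfml1) without them.

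Adgrl3 (chr5:81020138-81825133, plus strand) encodes latrophilin 3, an adhesion receptor of synapses, and is among 13 genes named by the study from these samples, which are no independent evidence of a direction. It was at 6.57, 6.90, 6.85, 6.73 and 6.92 log2 CPM in Control amphetamine mice and at 6.04, 6.11, 5.93, 6.76 and 6.96 in High-Active amphetamine mice. Control saline mice had 6.54, 6.71, 6.57, 6.79 and 6.53, and High-Active saline mice 6.04, 6.60, 5.95, 6.93 and 6.01. High-Active mice fell into a range of 5.93 to 6.11 and one of 6.60 to 6.96, and the 2 amphetamine mice that traveled farthest were in the higher range. The slope in 20 mice was 0.24 ± 0.073 (adjusted p = 0.652), and 0.20 without mouse 905 (adjusted p = 0.762, edgeR), where the unadjusted p was above 0.05. It was 0.11 without the 5 High-Active amphetamine mice (adjusted p = 0.926) and 0.08 with choroid plexus and blood scores added (adjusted p = 0.995, edgeR). It was 0.38 with home-cage distance added (adjusted p = 0.967) and 0.25 with cortex and oligodendrocyte scores added (adjusted p = 0.985, edgeR), both with an unadjusted p under 0.05. The other 12 genes of that list (Gm6180, Cfl1, Flrt3, Dpysl5, Rassf8, Ctnnbip1, Amotl2, Tmem44, Ctnnb1, Gsk3b, Glo1 and Syp) had slopes between -0.04 and 0.23. Of these 12, 0 had a p under 0.05, against 7.31% of all genes. Fosb, Junb, Npas4, Fkbp5, Sgk1 and Drd2, listed by the same naming rule, lay in the same range, and each of these 18 genes had the other sign in 1 alternative fit or more.

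In the 10 saline mice, Txnip (chr3:96557957-96561883, plus strand), which encodes a thioredoxin-interacting protein that restrains glucose uptake, had a slope of -0.66 ± 0.14 (adjusted p = 0.9995, edgeR). It was at 4.75, 4.38, 4.82, 3.91 and 3.83 log2 CPM in Control saline mice and at 5.13, 4.83, 4.70, 4.32 and 4.59 in High-Active saline mice, in order of distance. In both groups the 2 mice that traveled farthest had the lowest values and did not overlap the other 3. It was at 4.2, 3.86, 4.47, 3.89 and 3.58 in Control amphetamine mice and at 4.41, 4.09, 4.42, 4.12 and 3.95 in High-Active amphetamine mice. The slope there was -0.14 ± 0.074, and the test of the difference between the sets gave 0.52 ± 0.17 (adjusted p = 0.9999, edgeR).

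Other negative slopes with the smallest p in saline mice were those of Slc45a3 (-1.05 ± 0.23), Tmem212 (-0.996 ± 0.24), an ependymal marker, Rps19 (-0.30 ± 0.076), a ribosomal protein, and ENSMUSG00000072894 (-3.46 ± 0.61), which had no symbol in the annotation used. Positive ones were those of the pseudogene Amd-ps3 (1.63 ± 0.37), Uty (0.70 ± 0.17), a Y-linked demethylase, Stxbp4 (0.66 ± 0.17) and Mdh1b (1.29 ± 0.33). Usp9y, also Y-linked, belonged to this ranking but had 0 counts in 10 of the 20 mice and at most 81, so no slope is given. DESeq2 called 2 genes in this set, ENSMUSG00000072894 and Txnip. ENSMUSG00000072894 ran only from 0.06 to 5.13 CPM. Its slope was 0.56 ± 0.61 in amphetamine mice and 0.02 ± 0.55 in 20 mice. Slc45a3, Mdh1b, Amd-ps3 and Tmem212 were also low, with highest values of 2.94, 2.19, 4.75 and 4.22 CPM.

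The difference between the amphetamine and saline slopes passed the FDR threshold for 0 genes in edgeR, DESeq2, limma-trend and the likelihood-ratio test, and 245 genes (1.66%) had an unadjusted p under 0.05 in edgeR, 121 with a higher (0.818%) and 124 with a lower slope after amphetamine (0.838%). The slope was higher after amphetamine, by the smallest p, for Ndufb4 (0.42 ± 0.11), a subunit of respiratory complex I, Zfyve26 (0.36 ± 0.099) and Timm44 (0.28 ± 0.082), a subunit of mitochondrial protein import. It was lower after amphetamine for Ndufb4c (-1.51 ± 0.36), Mdh1b (-1.55 ± 0.40) and Dusp12 (-0.31 ± 0.083), a phosphatase. Ndufb4c is an annotated processed pseudogene, so its reads and those of Ndufb4 are uncertain.

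The sets hold different mice, and their slopes were compared gene by gene. Each of the 13 mice that shared both parents with another had such a littermate in the other set, so the sets were not independent. Of the 1031 genes with a p under 0.05 in amphetamine mice, 702 (68.1%) had the same sign in saline mice, against 59.1% of all genes. Among them, 20 also had a p under 0.05 in saline mice, 1.94% of the amphetamine genes and 7.41% of the 270 saline genes. Over all genes, 1.83% had a p under 0.05 in saline mice and 6.97% in amphetamine mice, in either direction. The overlap was thus near the share over all genes, and membership in the 20 is a description only. Rps3a1, Cirbp, Pde1c, Tpgs2, Tnfrsf25, Cyth4 and Cers6 were among the 20. Across genes, which are not independent replicates, the slopes of the sets had a Pearson correlation of 0.08 and a Spearman correlation of 0.226.

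Markers of choroid plexus and ependyma, which line the ventricle next to the striatum, had negative slopes. Of 13 choroid plexus genes, 0 were positive in 20 mice and 9 had a p under 0.05 (4.19% of all genes), with a median slope of -0.83. In the amphetamine set 12 had a p under 0.05 (3.7% of all genes) with a median of -0.85, and in the saline set 0 did (1.1% of all genes) with a median of -0.69. Ttr, the transthyretin of the choroid plexus, had -1.62 ± 0.72, Cldn2 -1.49 ± 0.56 and Otx2 -0.72 ± 0.26. Ttr ran from 2.85 to 9.68 log2 CPM in High-Active amphetamine mice, with the highest value in mouse 487, and from 0.55 to 9.52 in High-Active saline mice. The count of 9 was 0 without mouse 487, 2 without mouse 469, 3 without mouse 905, 4 without mouse 872 and 6 without mouse 407 or mouse 411. Of 7 ependymal markers 7 had negative slopes (median -0.28), and 4 had a p under 0.05 (4.19% of all genes). This was 0 without mouse 487 and 6 without mouse 192, where the count over all genes also rose, from 1082 to 1643. Of 15 oligodendrocyte markers 15 had negative slopes (median -0.09), and 3 had a p under 0.05 (4.19% of all genes), Opalin (-0.28 ± 0.11), Aspa (-0.18 ± 0.082) and Mag (-0.14 ± 0.065). This count was 0 without mouse 905, 1 without mouse 411, mouse 487 or mouse 872, and 5 without mouse 469. In bulk tissue, fewer cells of a type and less RNA per cell cannot be told apart.

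Blood genes were positive in 5 of 5 (median 0.81), with a p under 0.05 for the hemoglobin genes Hba-a1 (0.88 ± 0.27) and Hbb-bs (0.81 ± 0.26) and for Alas2 (0.92 ± 0.29), an enzyme of heme synthesis. These were 3 of the 5 (3.12% of all genes), and the count was 0 without mouse 905 and 5 without mouse 469. Hba-a1 was at 7.08 log2 CPM in mouse 905 and at 2.02 to 3.92 in the other High-Active amphetamine mice, and without mouse 905 its slope was 0.22 (adjusted p = 0.927, edgeR), that of Hbb-bs 0.22 and that of Alas2 0.38. Other marker lists had medians nearer 0, with 1 of 14 microglial genes positive (P2ry12 -0.09 ± 0.046), 5 of 14 astrocyte genes (Slc1a2 0.06 ± 0.027), 6 of 15 endothelial and pericyte genes (Flt1 0.11 ± 0.040, but 0.02 without mouse 905), 3 of 8 oligodendrocyte precursor genes (Gpr17 0.11 ± 0.057) and 6 of 11 interneuron genes (Chodl -0.08 ± 0.052). Cortical excitatory neuron markers were positive in 10 of 11, with a median of 0.12 (Fezf2 0.20 ± 0.16). Of these markers 0 had a p under 0.05, against 7.31% of all genes.

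With choroid plexus and blood scores added to the fit, 17 of 17 heat shock genes and 12 of 13 endoplasmic reticulum chaperones were positive, with medians of 0.09 and 0.10, and 3 and 2 had a p under 0.05. In this fit 625 of all 14792 genes had a p under 0.05 in either direction, against 1082 without added scores. The slope of Hspa8 was then 0.19 and that of Cirbp -0.18, both with an unadjusted p under 0.05 (adjusted p = 0.995, edgeR). With home-cage distance added, 16 of 17 and 12 of 13 were positive, with medians of 0.09 and 0.12, and 3 in each list had a p under 0.05. Over all genes, 615 had a p under 0.05 in either direction in this fit. The slope of Hspa8 was then 0.19 and that of Cirbp -0.33, both with an unadjusted p under 0.05 (adjusted p = 0.967, edgeR). The part of these measures in the slopes was not tested beyond these fits.

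Distance was related to 14 other measures of the same 20 mice, with group means removed. Home-cage distance at re-phenotyping (log2) had r = 0.692 (permutation p = 0.0166, adjusted p = 0.232) and rho = 0.387 (permutation p = 0.14, adjusted p = 0.333). Without mice 905 and 487 its r was lower, at 0.231. In the separate sets its r was 0.881 in amphetamine mice and 0.028 in saline mice, also a description without a test. The log2 number of counted reads had r = -0.317 (permutation p = 0.401, adjusted p = 0.568) and rho = -0.657 (permutation p = 0.00464, adjusted p = 0.065), with r = -0.535 without mice 905 and 487. In the separate sets r was -0.88 in saline mice and -0.154 in amphetamine mice, given as a description without a test. The mean of the choroid plexus markers had r = -0.418 (permutation p = 0.0966) and rho = -0.42 (permutation p = 0.086), with adjusted p of 0.338 and 0.333. The mean of the blood genes had r = 0.51 (permutation p = 0.0528, adjusted p = 0.338) and rho = 0.313 (permutation p = 0.209, adjusted p = 0.418). Body mass had r = -0.367 (permutation p = 0.223, adjusted p = 0.521) and rho = -0.242 (permutation p = 0.364, adjusted p = 0.612). Its r was -0.715 in amphetamine mice and 0.240 in saline mice, and 0.030 over 20 mice without mice 905 and 487.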

How the data were processed

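RNA from the striatum of 20 mice was sequenced as paired 100-base reads. The authors aligned reads to GRCm38 and deposited a table of raw counts per Ensembl 75 gene for each mouse; the submitters' processing notes name TopHat2 2.0.10, Bowtie2 2.1.0, SAMtools 0.1.19, HTSeq 0.6.1 and CASAVA 1.8.2. The strand setting of the counting is not given in the sources used here, so antisense partners may share reads. Entries that name no gene held 16.0% to 17.5% of each total and were left out. Of 39179 genes, 37607 matched a symbol. Counts per mouse ranged from 32388971 to 53710713 with a median of 41703853.5.

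Genes with more than 1 CPM in at least 3 mice (14792) were fitted with edgeR 4.0.16 (TMM, quasi-likelihood F test, R 4.3.3) on a mean for each group and log2 distance, with Benjamini-Hochberg adjustment over all genes and an FDR threshold of 0.1. SE is the slope divided by the root of F. Each set of 10 was fitted alone with line means, and the difference of slopes in 20 mice. CPM values are TMM-scaled, and log2 CPM used a prior count of 2. Correlations with distance used 100000 two-sided permutations of distance within groups. For single genes these p are unadjusted where no adjusted p stands beside them. Adjusted over the 111 genes of that family, p for r was 0.014 for Hspa8, Hsph1, Chordc1, Calr and Tmem64, 0.0086 for Cirbp and 0.024 for Hspa5. For rho it was 0.032 for Hspa8, Calr, Cirbp and Tmem64, 0.059 for Hsph1 and Hspa5, and 0.067 for Chordc1. Many of the 111 genes were chosen for a small p on this same distance or after their values were seen. The adjustment over 111 genes does not cover that choice. Over all 14792 genes, the smallest adjusted p of a slope in 20 mice was 0.359 in edgeR. The fit was tested on simulated data. Alternatives were DESeq2 1.42.0, limma 3.58.1, other filters, scalings, covariates and left-out mice. Covariates of choroid plexus and blood scores, and the fit without mice 905 and 487, were chosen after seeing the data.

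Genes were named if among the 10 smallest p of each sign in 20 mice, the 5 of each sign in each set, the 3 of each sign for the difference, or the smallest p of a list. The members of lists with a p under 0.05 in chaperone, MAPK, marker and dopamine lists, and Rps3a2 and Rbm3, were named in addition. The question, lists and tests were chosen with earlier results of these data known. Labels do not say whether mice were handled in separate batches. The result of 1 gene list is not reported here.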

Additional observations from a re-analysis of the deposited data

Results flagged for a closer look

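Within groups of 5 mice, 116 sets of values were examined for a highest or lowest mouse whose gap to the nearest other mouse, divided by the range of the group, exceeded 0.71 (Dixon's ratio). This occurred in 8 sets, and chance gives about 1 in 20. Control amphetamine mouse 407 had a distance of 57.1 against 30.2 for the next (ratio 0.794), and a log2 home-cage distance of -1.08 against -1.9 (0.827). Control saline mouse 448 had Rps3a1 at 6.23 log2 CPM against 7.15 (0.817) and Rps3a2 at 5.59 against 4.92 (0.771). High-Active saline mouse 483 had Tmem64 at 6.19 against 6.03 (0.719). High-Active amphetamine mouse 905 had a mean of the blood genes of 5.37 log2 CPM against 2.29 (0.762). High-Active amphetamine mouse 415 had 24.9 log2 counted reads against 25.5 (0.819). Control saline mouse 477 had a mean of the oligodendrocyte precursor markers of 3.97 against 3.62 (0.75). The distance of mouse 905 itself had a ratio of 0.691 in its group.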

How the results depend on the processing

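In 20 mice the number of genes at p under 0.05 (1082) was 1685 with no filter on low counts, 615 with home-cage distance added, 593 with cortex and oligodendrocyte scores, 625 with choroid plexus and blood scores and 622 without mice 905 and 487. The number past the FDR threshold (0 in edgeR) was 4 in DESeq2 and 52 in the likelihood-ratio test. In amphetamine mice it was 82 in DESeq2, 131 in the likelihood-ratio test, 1 with no filter and 1 with home-cage distance, and the number at p under 0.05 (1031) was 359 with home-cage distance, 521 with choroid plexus and blood scores and 577 without mice 905 and 487. In saline mice 2 genes passed in DESeq2, 23 in the likelihood-ratio test and 1 with body mass, and 609 had a p under 0.05 with no filter (270). For the difference of slopes, 633 had a p under 0.05 with no filter, 406 with ranks of distance and 415 with body mass (245). Leaving out single mice gave 769 to 1643, 788 to 1639, 219 to 623 and 206 to 381 genes at p under 0.05 in 20 mice, amphetamine mice, saline mice and the difference, and 0 past the FDR threshold except 0 to 1 in saline mice. The 1643 and 1639 were without mouse 192, and the 623, 381 and 1 without mouse 871. The causes were not tested. Without mice 905 and 487, r was 0.434 for Pde1c and 0.231 for home-cage distance.

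Besides the 18 genes named with Adgrl3, slopes in 20 mice that changed sign were those of Maff (-0.0483 without the 5 High-Active amphetamine mice), Fos (-0.0193 with distance not log, -0.0612 with ranks, -0.126 with home-cage distance, -0.133 with cortex and oligodendrocyte scores, -0.0405 without the interaction of line and treatment, and -0.075 to 0.177 over single mice left out, lowest without mouse 487), Arc (-0.0344 with cortex and oligodendrocyte scores), Drd1 (-0.00074), Ttr (0.46) and Rbm3 (0.0434) with choroid plexus and blood scores, and Rbm3 (0.0225) with distance not log. The family block in limma-voom called 0 genes in 20 mice and for the difference. It was not run in the separate sets, where littermates were too few to estimate it. Littermates were handled only in that block. No paired analysis of littermates was run. Beyond the families, replicate numbers were given in accession order and pair no mice. In saline mice the narrow range of distance limits precision.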

Other observations

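Rbm3, the other well-known cold-inducible RNA-binding protein, was added after the values were seen. Its slope was -0.06 ± 0.084 in 20 mice (adjusted p = 0.862, edgeR), -0.02 ± 0.072 in amphetamine mice and -0.28 ± 0.21 in saline mice. With group means removed, its r was -0.174 (permutation p = 0.339) and rho -0.367 (permutation p = 0.103), and r was -0.528 without mice 905 and 487.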
